A study of Mus musculus with 8 samples.

Results

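The 200 most abundant long noncoding RNAs (lncRNAs) encoded on the autosomes of mouse pancreas were described gene by gene and mouse by mouse. They were the first 200 of 2685 lncRNA genes on chromosomes 1 to 19, in a table of 21434 genes, when ranked by the mean FPKM over all 8 libraries. The lncRNAs were thus chosen by their measured FPKM, so the levels below are a description. The comparison of genotypes was not used to choose them. RNA came from homogenized pancreas of untreated mice aged 18 weeks. The 4 Bach2KO mice were homozygous C57BL/6N-Bach2tm1b(EUCOMM)Wtsi/leg animals, which lack Bach2 in the whole body, and the 4 Bach2WT mice were wild type animals of the same strain. In both genotypes mice 1 and 2 were female and mice 3 and 4 male, with 1 library from each animal. The strain was kept as separate colonies at 2 sites, and the site of each mouse is not given in the sources used here.

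A lncRNA is a long transcript with no long open reading frame. Some act in the nucleus as scaffolds of nuclear bodies, some carry small nucleolar RNAs (snoRNAs) or microRNAs in their introns or exons, and many have no assigned function and are known only by a clone name, a predicted-gene number or the coding gene they overlap. In the pancreas, most messenger RNA encodes a small set of digestive enzymes made by acinar cells. The libraries were made from RNA purified on poly-T beads, a step that selects for RNAs with a poly(A) tail.

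The 8 libraries held 72299745 to 172029360 counts on genes. Counts of Bach2 itself were near 0 in both genotypes (Bach2KO 3 to 16, Bach2WT 4 to 31), so that its level could not check the labels. Acinar markers summed to 2.246e+05 to 2.751e+05 FPKM in Bach2KO and 2.375e+05 to 3.26e+05 FPKM in Bach2WT libraries, whereas islet markers ranged from 147.3 to 1891 FPKM and B and plasma cell markers from 0.4081 to 92.29 FPKM. Islet markers were highest in Bach2WT mouse 4 (1891) and Bach2KO mouse 3 (1617), and B and plasma cell markers in Bach2KO mouse 1 (92.29) and Bach2WT mouse 1 (51.4). Red blood cell markers were also highest in Bach2WT mouse 4 (273 FPKM) and Bach2KO mouse 3 (211.6 FPKM), as were duct markers (63.02 and 53.04 FPKM). On the first principal component of all genes tested, the library of Bach2KO mouse 3 lay at 102 and the others between -34.8 and 7.22. On the first component of the lncRNAs alone, this library lay at -0.144, and Bach2KO mouse 1 (12.1) and Bach2WT mouse 2 (-7.65) lay farthest apart.

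The lncRNAs formed a steep series of levels. Only 3 had a mean of 10 FPKM or more, 25 had 1 or more and 54 had 0.5 or more. The median of the 200 was 0.2597 FPKM. The first 3 held 64.1% and the first 15 held 76.7% of the summed FPKM of the 200. Together the 200 held 86.9% of the FPKM of all autosomal lncRNAs, of which the other 2485 had a median of 0.00806. Of 15533 protein-coding genes, 5751 lay above the median lncRNA of this set. The last gene inside was Gm28901 with 0.1279 FPKM and the first outside was Gm4673 with 0.1269 FPKM, so the border fell within a continuous slope. When each library was ranked alone, 141 to 160 of the 200 were among its first 200, and 68 were in all 8 libraries. All 200 took 0.0348% ± 0.00271 of the counts in Bach2KO and 0.0345% ± 0.00476 in Bach2WT libraries (SD, n = 4 each), and the ranges of 0.0326% to 0.0387% and 0.0286% to 0.0402% overlapped.

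**Figure D1:**
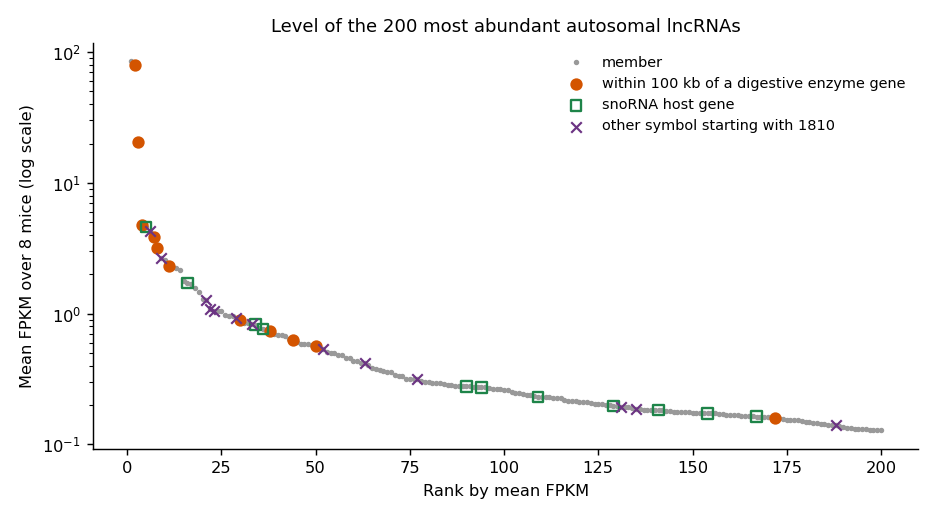
Mean FPKM over 8 mice (log scale) against rank for each of the 200 lncRNAs (grey points), with those within 100 kb of a digestive enzyme gene in orange, snoRNA host genes as green squares and other RIKEN symbols of the pancreas library as purple crosses. The first 3 lie between 20.5 and 85.3 FPKM and the rest below 5, and 6 of the first 15 lie within 50 kb of a digestive enzyme gene.

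By name, 75 of the 200 were predicted genes (Gm followed by digits), 48 were RIKEN clones, 44 had an identifier but no symbol, 14 had a gene name, 11 were named for the gene on the opposite strand, 6 were other clones and 2 were microRNA host genes. The RIKEN symbols that begin with the same 4 digits as 1810028F09Rik go back to a library of mouse pancreas complementary DNA. They made up 16 of the 200 (8%) against 12 of the other 2485 autosomal lncRNAs (0.483%), and 10 of the 16 were in the first 50. Gene lengths reached 21163 bases with a median of 1177, against 1649 for the other autosomal lncRNAs.

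A list of 40 digestive enzyme genes, of which 39 were in the table, was laid over the coordinates. Within 10 kb of such a gene lay 6 of the 200 lncRNAs (3%) and 1 of the other autosomal lncRNAs (0.0402%). Within 50 kb lay 10 (5%) and 7 (0.282%), and 6 of the 10 were among the first 15. These shares were not tested, since the level chose the genes. At the same time, 94 of the 200 (47%) overlapped another gene, 84 of them on the opposite strand, compared with 56% of the other autosomal lncRNAs. A gene with at least 10 times their FPKM was overlapped by 10 of the 200. The strand setting of the counting is not given in the sources used here, so reads of an overlapping pair cannot be told apart.

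The most abundant was Gm10076 (chromosome 14, 105919259 to 105919665, plus strand, GRCm39). Its FPKM was 47.7, 77.0, 89.5 and 72.7 in Bach2KO mice 1 to 4 and 46.8, 68.4, 42.0 and 239 in Bach2WT mice 1 to 4. A single library, Bach2WT mouse 4, stood above all others, and the genotypes overlapped. Its transcript was 99.48% identical over 383 bases to one of Rpl41, a ribosomal protein gene with a mean of 1084 FPKM, so its level is uncertain. Near-identical copies of at least 50% of the transcript at another locus were found for 8 of the 156 lncRNAs whose identifier was in the GENCODE M21 transcripts, among them Gm28901, Norad and Gm43305.

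Second was 1810028F09Rik (chromosome 14, 51380327 to 51381574, minus strand), which lies 881 bases downstream of Rnase1, the pancreatic ribonuclease gene, on the same strand. It had 51.1, 68.9, 54.8 and 79.0 FPKM in Bach2KO mice and 95.6, 95.03, 111 and 80.0 FPKM in Bach2WT mice. All 4 Bach2WT values were above all 4 Bach2KO values, with the highest Bach2KO mouse (79.0) just under the lowest Bach2WT mouse (80.0), while on the normalized counts of the fit the genotypes overlapped. The log2 fold change was -0.56 (SE 0.17, unadjusted p = 0.00618, adjusted p = 0.531 in edgeR). Rnase1 had a log2 fold change of -0.70 (unadjusted p = 0.0017, adjusted p = 0.371 in edgeR). In each mouse the lncRNA had 0.327% to 0.546% of the FPKM of Rnase1. No other gene of the table overlaps 1810028F09Rik, and it varied little, with a coefficient of variation (CV, on TMM-normalized CPM) of 16.5% within genotypes.

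Next came 1810007D17Rik (chromosome 19, 58594761 to 58618185, plus strand), which lies 22.7 kb upstream of Pnlip, the pancreatic triglyceride lipase gene, on the same strand. It had 0.245, 3.21, 10.2 and 8.97 FPKM in Bach2KO mice 1 to 4 and 23.9, 37.1, 55.4 and 24.8 FPKM in Bach2WT mice 1 to 4. The genotypes did not overlap, and Bach2KO mouse 1 was far below the rest. The means were 5.66 ± 4.72 and 35.3 ± 14.7 FPKM (SD, n = 4 each). The log2 fold change was -2.63 (SE 0.70, unadjusted p = 0.00244), and the adjusted p over all genes was 0.44 in edgeR and 0.233 in DESeq2. Without the filter on low counts, edgeR gave an adjusted p of 0.00449. Over all alternatives the unadjusted p stayed at or below 0.00873 and the adjusted p ranged from 0.00449 to 0.784 in edgeR and DESeq2. Pnlip had 2.487e+04 to 3.604e+04 FPKM and a log2 fold change of -0.13 (unadjusted p = 0.396, adjusted p = 0.916 in edgeR). Acinar markers overlapped between the genotypes, with 0 of 7 higher (3.9% of all genes) and 2 of 7 lower (3.56%) at the unadjusted threshold. In whole tissue, fewer cells of a type and less RNA per cell cannot be told apart. Farther along the same strand, 13.7 kb downstream of Pnlip, 1810035K13Rik had 0.25 to 1.12 FPKM and a log2 fold change of 0.89 (SE 0.69).

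The RefSeq promoter of 1810007D17Rik (GRCm38.p6, chr19:58606079-58606378, plus strand), from 250 bases before to 50 bases after the start site, is shown because this lncRNA had the lowest p of the 200. The stretch is all in lower case, since it held no TGANTCA on either strand. It also held no TATAAA on the gene's strand between 40 and 15 bases before the start. Of all genes, 8.97% had TGANTCA and 2.41% had TATAAA in these places in any of their RefSeq promoters.
1810007D17Rik: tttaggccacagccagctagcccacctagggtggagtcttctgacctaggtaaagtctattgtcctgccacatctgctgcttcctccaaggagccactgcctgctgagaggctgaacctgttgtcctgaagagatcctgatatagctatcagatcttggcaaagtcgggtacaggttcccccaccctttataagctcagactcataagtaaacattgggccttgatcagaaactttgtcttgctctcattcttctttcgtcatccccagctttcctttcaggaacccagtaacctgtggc

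Of the other lncRNAs near digestive enzyme genes, Ctrcos overlaps Ctrc, the chymotrypsin C gene, on the opposite strand. It had 4.25 to 5.06 FPKM in Bach2KO mice and 2.22 to 8.29 FPKM in Bach2WT mice (log2 fold change -0.05, SE 0.34), while Ctrc had a mean of 180.9 FPKM. Gm13381 overlaps Cel, the carboxyl ester lipase gene, also on the opposite strand, and had 0.014% of its FPKM. Its own FPKM was 1.61, 5.54, 2.09 and 6.03 in Bach2KO mice and 1.15, 0.944, 3.69 and 4.43 in Bach2WT mice, with no separation of the genotypes. Galnt6os lies 7.85 kb from Cela1, an elastase gene, and overlaps Galnt6, a glycosyltransferase gene, on the opposite strand. It had 241% of the mean FPKM of Galnt6, with 2.29 to 4.96 FPKM in Bach2KO mice and 2.42 to 4.997 FPKM in Bach2WT mice. Gm13010, 6.04 kb upstream of the elastase gene Cela3b, kept between 1.82 and 3.33 FPKM in all mice. Farther down the ranks stood Gm43525 (32.7 kb from Cpb1), Gm16156 (0.471 kb from Ctrl), Gm10134 (48 kb from Cel) and C330013E15Rik (59.3 kb from Cela1). Other coding genes lay closer to them: Agtr1b at 4.56 kb from Gm43525, Gbgt1 at 0.68 kb from Gm10134 and Dazap2 at 0.207 kb from C330013E15Rik. Gm16156 overlaps Slc12a4 on the opposite strand. Of the 11 lncRNAs within 100 kb of an enzyme gene, 7 had a negative and 4 a positive log2 fold change. All 8 enzyme genes beside them had a negative one, while 54.7% of all genes tested had a positive one. Over the whole list, 13 of the 39 enzyme genes tested were lower and 3 higher in Bach2KO at the unadjusted threshold. Of all genes tested, 3.56% were lower and 3.9% higher.

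Outside the enzyme loci, 1810010K12Rik lies 4.33 kb downstream of Ptf1a, a transcription factor gene of acinar cells, on the same strand. It had 3.62, 4.06, 2.42 and 2.91 FPKM in Bach2KO mice and 2.00, 1.37, 2.27 and 2.51 FPKM in Bach2WT mice. Only the lowest Bach2KO value fell among the Bach2WT values. The log2 fold change was 0.70 (SE 0.22, unadjusted p = 0.00754, adjusted p = 0.531 in edgeR), and that of Ptf1a was 0.08 (SE 0.32). Rap1gapos overlaps Rap1gap, a gene of a small GTPase regulator, on the opposite strand, and had 1.61 to 2.71 FPKM in Bach2KO and 1.73 to 3.47 FPKM in Bach2WT mice. The other 5 of the first 15, which were Gm15915, Gm11695, ENSMUSG00000121141, Gm17201 and 1810044K17Rik, had log2 fold changes between -0.24 and 0.12.

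**Figure D2:**
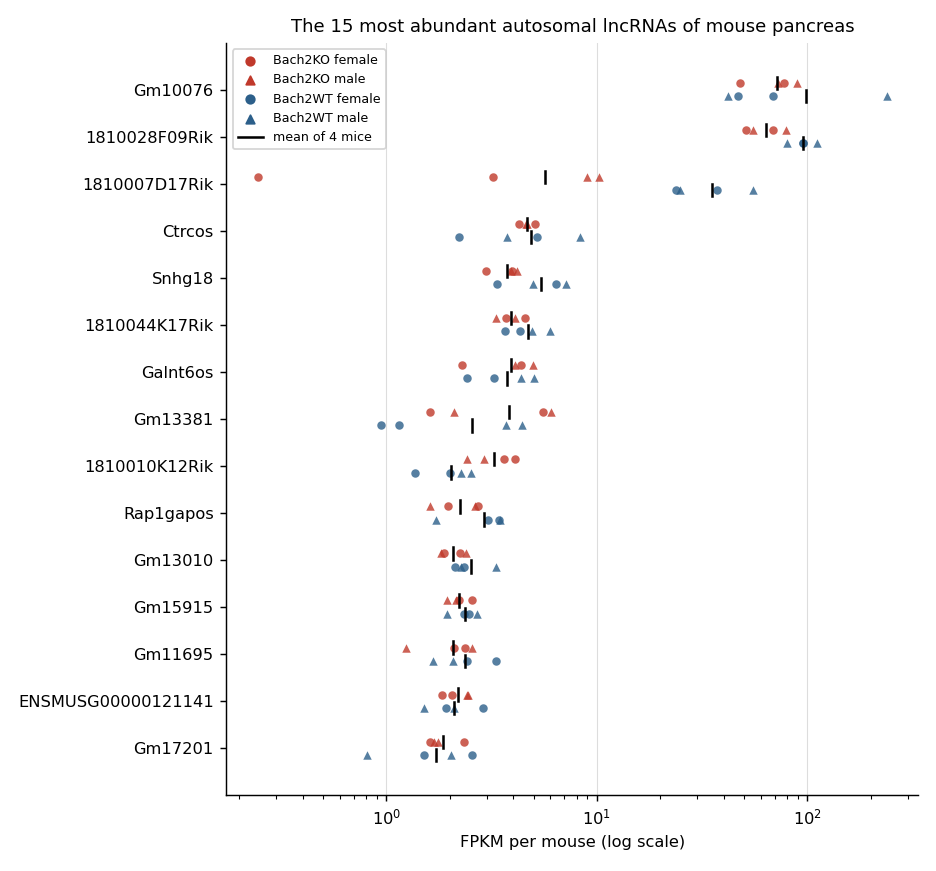
FPKM per mouse (log scale) of the 15 most abundant lncRNAs, with Bach2KO mice in red, Bach2WT mice in blue, females as circles, males as triangles and the mean of 4 mice as a black bar. 1810007D17Rik lies at 0.245 to 10.2 FPKM in Bach2KO mice and at 23.9 to 55.4 FPKM in Bach2WT mice, and Gm10076 has a single value of 239 FPKM in Bach2WT mouse 4.

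Several lncRNAs carry or flank microRNAs, and their mature sequences are shown to identify the small RNAs that these loci are known for. Mir217hg, which spans Mir216a and Mir217 on the same strand, was 71st with 0.928, 0.351, 0.26 and 0.203 FPKM in Bach2KO mice and 0.687, 0.075, 0.207 and 0 FPKM in Bach2WT mice. The single 0 allows up to 0.0714 FPKM at 3 counts, for counting error only, and the genotypes overlapped (log2 fold change 0.88, SE 1.00). Mir22hg, the host gene of Mir22, had 0.00263 to 0.6 FPKM in Bach2KO mice and 0.00717 to 0.252 FPKM in Bach2WT mice (log2 fold change 0.89, SE 1.14). Mir217hg was named after its values were seen. 1810044K17Rik and 1810053B23Rik lie 655 and 3052 bases from Mir802, the first on its strand and the second on the opposite one. 1810044K17Rik had 3.33 to 4.54 FPKM in Bach2KO and 3.65 to 5.97 FPKM in Bach2WT mice. 1810053B23Rik had 0.641 to 0.752 FPKM in Bach2KO and 0.68 to 1.25 FPKM in Bach2WT mice, with a log2 fold change of -0.41 (SE 0.20, unadjusted p = 0.0646, adjusted p = 0.695 in edgeR). In the RefSeq sequences below (GRCm38.p6), the seed, bases 2 to 8, is in capitals, and all 4 seeds differ.
mmu-miR-217-5p: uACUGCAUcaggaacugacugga
mmu-miR-216a-5p: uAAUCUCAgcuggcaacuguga
mmu-miR-22-3p: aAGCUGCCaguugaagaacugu
mmu-miR-802-5p: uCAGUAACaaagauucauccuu

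The spread between mice of a genotype was wide. The median CV of TMM-normalized CPM within genotypes was 47.5%, from 8.07% for Gm15417 to 176% for Gm48129. It was 43.7% in Bach2KO and 47.8% in Bach2WT mice. By rank, the median CV was 31.7% for the first 50, 41.3% for the next 50, 53.3% for the 50 after these and 63.9% for the last 50. Total counts per lncRNA over the 8 libraries ran from 15 to 96873 with a median of 369, and 165 were counted in every library. With under 100 counts, the median CV was 97.6% for 18 lncRNAs and 124% for protein-coding genes. With at least 100 and under 500 counts, it was 55.3% for 106 lncRNAs and 60% for coding genes. With at least 500 and under 2000 counts, it was 31.3% for 54 lncRNAs and 32.6% for coding genes. With 2000 counts or more, it was 34.4% for 22 lncRNAs against 18.3% for 4204 coding genes, the only class of depth in which the lncRNAs had the higher median. That class has no upper limit, so depth was not matched between its coding genes and these lncRNAs. Gm10076, 1810007D17Rik, Neat1 and Gm43305 were among these 22, with CVs of 58.8%, 62.2%, 38.4% and 92.1%.

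The least variable were Gm15417 (8.07%), Gm15915 (13.1%), Gm10134 (14.8%), 1810028F09Rik (16.5%) and 1810044K17Rik (16.7%). Gm15417, which overlaps the transcription factor gene Zbtb7b on the opposite strand, had 0.443 to 0.548 FPKM in Bach2KO and 0.459 to 0.513 FPKM in Bach2WT mice. The most variable, Gm48129, ENSMUSG00000121056, ENSMUSG00000121119, ENSMUSG00000120950 and Gm36608, had 20 to 77 counts in all and reached their highest values in 1 or 2 libraries each. For example, Gm48129 had 0.882 FPKM in Bach2KO mouse 3, 0.447 in Bach2WT mouse 4, 0.214 in Bach2KO mouse 1 and 0 in the other libraries. Gm36608 had 0.684 and 0.499 FPKM in the female Bach2WT mice and 0.0205 FPKM or less in the others. No library dominated: the highest value fell in Bach2KO mouse 1 for 38 lncRNAs, in Bach2KO mouse 3 and Bach2WT mouse 4 for 33 each, and in Bach2KO mouse 4 for 9. In the pair of libraries highest in islet markers, 8.06% of the lncRNAs tested had their highest values of both genotypes, against 8.3% of all genes tested.

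**Figure D3:**
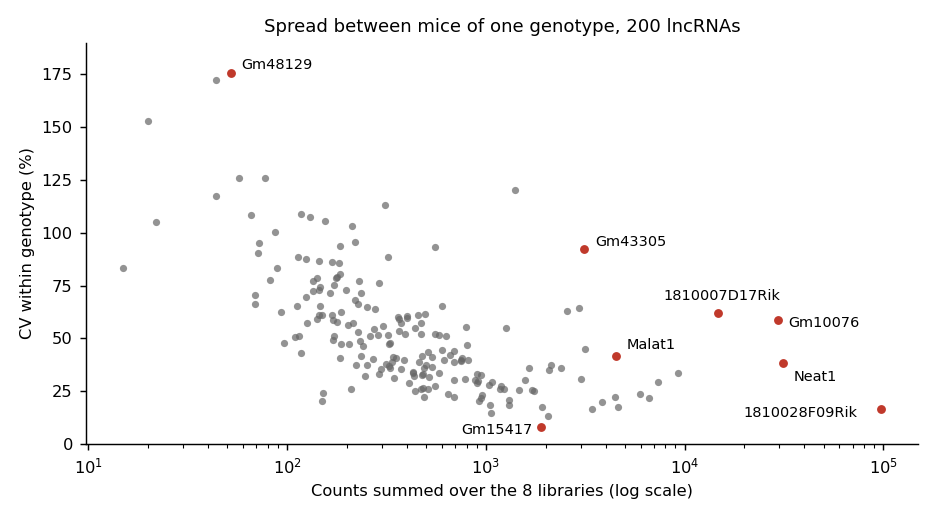
CV of TMM-normalized CPM within genotype (%, mean of both genotypes) against the counts summed over the 8 libraries (log scale) for the 200 lncRNAs, with 8 named in red. CVs fall from a median of 97.6% under 100 counts to 31.3% at 500 to 2000 counts, and 1810007D17Rik, Gm10076 and Gm43305 lie above 50% in spite of over 2000 counts.

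Between the genotypes, edgeR tested 186 of the 200 lncRNAs, and 14 did not pass the filter on low counts. At a Benjamini-Hochberg adjusted p under 0.05, 0 lncRNAs passed in either direction, where 0.0078% of all 12820 genes tested did, and the lowest adjusted p of a lncRNA was 0.44. DESeq2 likewise gave 0 of 197, against 0.483% of all genes. At an unadjusted p under 0.05, 14 lncRNAs passed, 8 higher and 6 lower in Bach2KO, which is 7.53% against 7.46% of all genes tested (3.9% higher and 3.56% lower). With RLE size factors the split was 8 higher and 9 lower (9.14%, against 7.49% of all genes), and DESeq2 gave 21 of 200 (10.5%, against 6.56% of all genes). Of the 99 lncRNAs tested that overlap no other gene, 11 passed (11.1%, against 7.46% of all genes, with or without overlap). The share among all genes without overlap is not given here, so this count is not a result about overlap. Without Bach2KO mouse 1, 7 lncRNAs passed, all 7 among the 14 (3.89%, against 5.51% of all genes). Those that did not pass without it were Snhg18, Snhg12, Gm49980, 2310040G24Rik, ENSMUSG00000120963, ENSMUSG00000121069 and Gm43305. On the normalized counts, the genotypes did not overlap for 8 lncRNAs tested (4.3%, against 4.49% of all genes), 5 higher (2.57% of all genes) and 3 lower (1.92% of all genes). The median log2 fold change was 0.10, compared with 0.048 over all genes, and 105 values were positive (56.5%, against 54.7% of all genes) and 81 negative. A change of at least 1 on the log2 scale was seen for 21 lncRNAs tested (11.3%, against 7.61% of all genes).

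**Figure D4:**
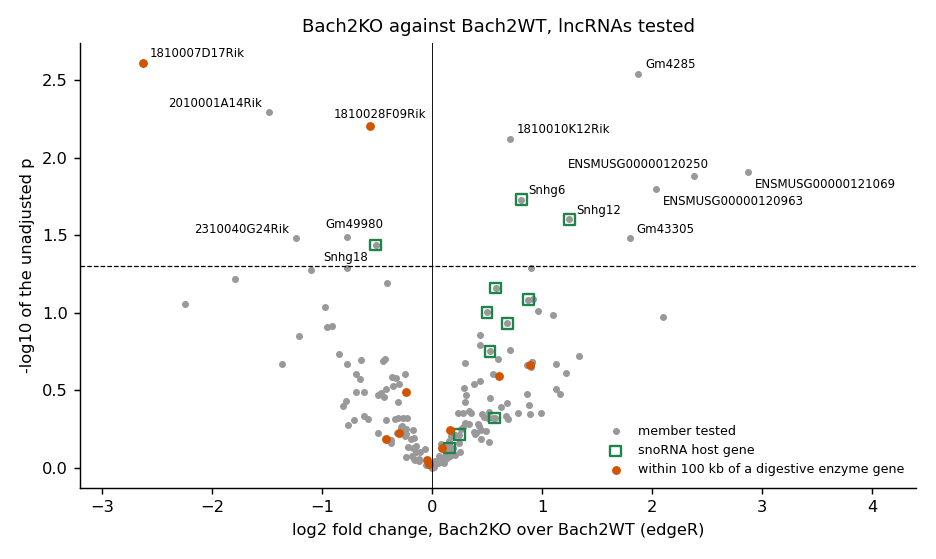
Log2 fold change of Bach2KO over Bach2WT against -log10 of the unadjusted p (edgeR) for the 186 lncRNAs tested, with snoRNA host genes as green squares, lncRNAs within 100 kb of a digestive enzyme gene in orange and a dashed line at 0.05. The 14 named lncRNAs lie above the line, 8 to the right and 6 to the left, and none of them passes after adjustment.

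Of the lncRNAs whose genotypes did not overlap, 6 were under the unadjusted threshold, 1810007D17Rik among them. Gm4285, which starts 115 bases from Tpt1, a translationally controlled tumour protein gene, on the opposite strand, had 0.405, 0.452, 0.231 and 0.27 FPKM in Bach2KO mice and 0.131, 0.0714, 0.101 and 0.0725 FPKM in Bach2WT mice. The log2 fold change was 1.88 (SE 0.51, unadjusted p = 0.00286), with an adjusted p of 0.456 in edgeR and 0.0516 in DESeq2. Tpt1 had a log2 fold change of 0.25 (SE 0.15). ENSMUSG00000120963, opposite to the cell polarity gene Pard3, had 0.268 to 0.895 FPKM in Bach2KO and 0.0859 to 0.164 FPKM in Bach2WT mice (log2 fold change 2.04, SE 0.74). ENSMUSG00000120250, 444 bases from Bicra, had 0.213, 0.228, 0.453 and 0.198 FPKM in Bach2KO mice and 0.0303, 0.0942, 0.0385 and 0.0398 FPKM in Bach2WT mice (log2 fold change 2.38, SE 0.83), on 110 counts in all. Gm4285, ENSMUSG00000120963 and ENSMUSG00000120250 did not reach 10 counts in every mouse. In the other direction, 2010001A14Rik, 150 bases from Sap30l, a corepressor subunit gene, had 0.275, 0.489, 0.264 and 0.591 FPKM in Bach2KO mice and 0.661, 1.504, 1.59 and 0.852 FPKM in Bach2WT mice. Its log2 fold change was -1.48 (SE 0.44, unadjusted p = 0.00505, adjusted p = 0.522 in edgeR), while that of Sap30l was -0.10 (SE 0.19). The sixth was Snhg6, described with the snoRNA host genes. The other 2 lncRNAs without overlap, Gm16143 (higher) and Gm12343 (lower), had unadjusted p-values of 0.173 and 0.0879 in edgeR.

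The remaining lncRNAs under the unadjusted threshold overlapped between the genotypes. Gm49980 and 2310040G24Rik, both named after their values were seen, had log2 fold changes of -0.77 and -1.24. ENSMUSG00000121069 had 1.26 FPKM in Bach2KO mouse 1, 0.047 to 0.392 FPKM in the other Bach2KO mice and 0.0139 to 0.161 FPKM in Bach2WT mice. Its log2 fold change of 2.87 (unadjusted p = 0.0123, adjusted p = 0.561 in edgeR) became 1.38 without this mouse (unadjusted p = 0.132, adjusted p = 0.93 in edgeR). Gm43305, the only gene of a list of immune or interferon linked lncRNAs among the 200, had 1.99, 0.375, 0.772 and 0.437 FPKM in Bach2KO mice and 0.621, 0.271, 0.0165 and 0.151 FPKM in Bach2WT mice. Its log2 fold change was 1.79 (SE 0.75, unadjusted p = 0.033, adjusted p = 0.643 in edgeR) and became 1.00 without Bach2KO mouse 1 (unadjusted p = 0.174, adjusted p = 0.944 in edgeR). This mouse also had the highest sum of B and plasma cell markers (92.29 FPKM, others 0.4081 to 51.4) and of lymph node and spleen markers (5.311 FPKM, others 0.2734 to 1.338), and their part in the result was not tested. The 6 T cell markers summed to 0.2387 to 0.9113 FPKM in Bach2KO and 0 to 0.6726 FPKM in Bach2WT mice.

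A list of 20 snoRNA host genes was followed as a group. The introns of these genes yield snoRNAs, which guide the modification of ribosomal and other RNAs, and the spliced host RNA is often short-lived. Of the list, 18 were in the table and 11 were among the 200 lncRNAs, all of them tested. At an adjusted p, 0 of the 11 passed, and at an unadjusted p, 2 were higher (3.9% of all genes were) and 1 was lower (3.56% of all genes). In Bach2KO, 10 of 11 had a positive log2 fold change, as did 54.7% of all genes tested. Their median was 0.57 beside 0.10 for all 186 lncRNAs, and without Bach2KO mouse 1 the median was 0.38 with 8 of 11 positive. All 11 summed to 10.1, 10.2, 9.5 and 7.96 FPKM in Bach2KO mice 1 to 4 and to 7.38, 9.9, 9.65 and 10.5 FPKM in Bach2WT mice 1 to 4. The sums of the genotypes overlapped, and Bach2WT mouse 4 had the highest and Bach2WT mouse 1 the lowest. Snhg18 held a large part of these sums and was the only one of the 11 with a negative log2 fold change. The other 10 summed to 7.13, 6.31, 5.58 and 3.77 FPKM in Bach2KO mice and to 4.04, 3.52, 4.7 and 3.33 FPKM in Bach2WT mice. In these sums only Bach2KO mouse 4 fell among the Bach2WT values, and Bach2WT mouse 4 was the lowest. Leaving out the only host gene that was lower tilts these sums toward Bach2KO, so they are no result about the genotypes.

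Snhg6 had 0.247, 0.366, 0.32 and 0.238 FPKM in Bach2KO mice and 0.124, 0.194, 0.16 and 0.2 FPKM in Bach2WT mice, without overlap (log2 fold change 0.81, SE 0.30, unadjusted p = 0.0186, adjusted p = 0.608 in edgeR). Snhg12 had 0.323, 0.264, 0.289 and 0.0894 FPKM against 0.0882, 0.148, 0.0658 and 0.111 FPKM (log2 fold change 1.25, SE 0.49, unadjusted p = 0.0249, adjusted p = 0.627 in edgeR). Only Bach2KO mouse 4 fell among the Bach2WT values. Gas5, a host gene whose RNA also binds the glucocorticoid receptor, had 0.625 to 1.29 FPKM in Bach2KO and 0.379 to 0.776 FPKM in Bach2WT mice (log2 fold change 0.50, SE 0.28). Snhg8 was the second host gene by level, with 2.75, 2.16, 1.96 and 1.28 FPKM against 1.34, 1.54, 1.65 and 1.03 FPKM (log2 fold change 0.58, SE 0.29). Epb41l4aos, Zfas1, Snhg1 and Snhg20 had log2 fold changes of 0.52, 0.68, 0.57 and 0.87, and Snhg15 and Snhg17 of 0.25 and 0.16. Snhg18, the fifth lncRNA by level and the host of Snord123, went the other way, with 2.98, 3.94, 3.92 and 4.19 FPKM in Bach2KO mice and 3.35, 6.38, 4.95 and 7.13 FPKM in Bach2WT mice (log2 fold change -0.51, SE 0.22, unadjusted p = 0.0365, adjusted p = 0.649 in edgeR). Bach2WT mouse 1 fell among the Bach2KO values.

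**Figure D5:**
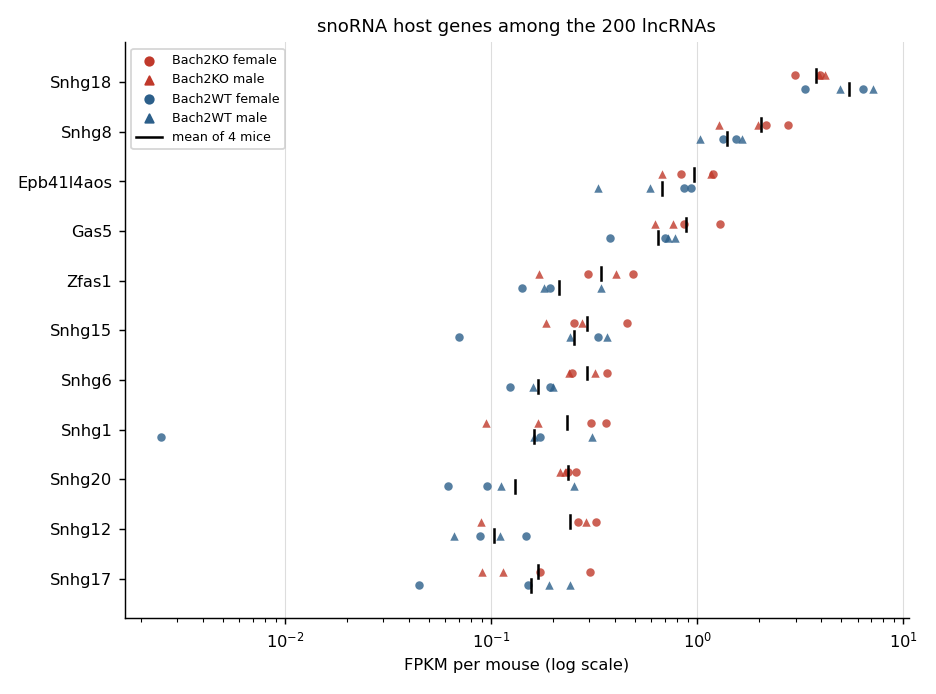
FPKM per mouse (log scale) of the 11 snoRNA host genes among the 200 lncRNAs, with Bach2KO mice in red, Bach2WT mice in blue, females as circles, males as triangles and the mean of 4 mice as a black bar. The mean is higher in Bach2KO for 10 of the 11 and lower for Snhg18, and the values of the genotypes overlap for all but Snhg6.

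RNAs of many snoRNA host genes begin with a run of pyrimidines, as those of ribosomal protein genes do (a 5′ TOP start). A run of at least 5 pyrimidines that began with C within 3 bases of the start site was found in 4 of the 9 snoRNA host genes with a RefSeq promoter (44.4%), in 18 of the 84 other lncRNAs with one (21.4%) and in 13.5% of all 27025 genes. The 4 windows, from 10 bases before the start to 20 bases from it, are given with capitals from the first C within 3 bases of the start to the end of the run, which can reach farther upstream (GRCm38.p6). A gene was counted where any of its RefSeq starts had such a run, and for Gas5 1 of 2 starts did.
Gas5 (chr1:161035156-161035185, plus strand): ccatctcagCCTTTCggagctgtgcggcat
Snhg12 (chr4:132308668-132308697, plus strand): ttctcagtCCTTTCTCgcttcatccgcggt
Snhg18 (chr15:32244643-32244672, minus strand): cccaggcCCCTCCTCTagccccgcctcttc
Snhg8 (chr3:123508317-123508346, minus strand): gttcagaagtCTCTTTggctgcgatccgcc
Of these 4, Snhg12 and Snhg18 were under the unadjusted threshold in opposite directions, as described above.

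Among lncRNAs of nuclear structure, Neat1, Norad, Malat1 and Oip5os1 were in the set, and 0 of the 4 passed either threshold with all 8 mice. Neat1, the scaffold of paraspeckles, was 18th with 1.18, 1.07, 1.62 and 1.69 FPKM in Bach2KO mice and 2.45, 0.323, 2.16 and 2.07 FPKM in Bach2WT mice (log2 fold change -0.31, SE 0.43). Without Bach2WT mouse 2 its log2 fold change was -0.66 (unadjusted p = 0.00486, adjusted p = 0.73 in edgeR), and with the replicate block it was -0.028. Malat1, which is retained in nuclear speckles, had 0.542 to 0.798 FPKM in Bach2KO mice and 1.23, 0.111, 0.734 and 0.693 FPKM in Bach2WT mice (log2 fold change -0.01, SE 0.47). For both, Bach2WT mouse 2 was the lowest of all and Bach2WT mouse 1 the highest. Norad, which sequesters Pumilio proteins, had 0.565 to 1.22 FPKM in all mice, and its log2 fold change of 0.30 became 0.49 without Bach2WT mouse 4 (unadjusted p = 0.0444, adjusted p = 0.817 in edgeR). Oip5os1 had 0.0755 to 0.23 FPKM. Peg13, an imprinted gene inside Trappc9, had 1.04 FPKM in Bach2KO mouse 3 and 0.325 to 0.553 FPKM in all other mice (log2 fold change 0.30, SE 0.33). Of the list of small RNA genes typed as lncRNA, 0 were in the set.

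BACH2 is a transcription repressor that binds DNA with small Maf or BATF proteins at elements whose core resembles TGA, a variable base and TCA. The motif TGANTCA, which reads the same on both strands, was found in the 300-base RefSeq promoters of 3 of 93 lncRNAs with one (3.23%) and of 8.97% of all genes. None of the 3 was under the unadjusted threshold. The windows of 31 bases are given with the motif in capitals (GRCm38.p6), since these are the only lncRNAs of the 93 that hold it.
D730003I15Rik (chr1:191224431-191224461, plus strand): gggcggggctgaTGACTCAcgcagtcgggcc
Gm15417 (chr3:89391675-89391705, plus strand): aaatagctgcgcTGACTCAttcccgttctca
Gm33586 (chr7:112987719-112987749, plus strand): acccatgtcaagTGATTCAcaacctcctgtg
Gm15417 is the lncRNA with the lowest CV of the set, at 8.07%, and its log2 fold change was 0.03 (SE 0.21).

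Between males and females, with genotype in the model, 0 of 186 lncRNAs passed the adjusted p in edgeR (0.0312% of all genes did, 0.0156% in each direction), and the lowest adjusted p was 0.89. At an unadjusted p under 0.05, 8 were higher and 4 lower in males, 6.45% against 5.29% of all genes (1.93% higher and 3.36% lower). The 5 with the smallest p were 1810008B01Rik, Gm45447, Galnt6os, Gm43305 and Gm15441. 1810008B01Rik, which overlaps Galnt2 on the opposite strand, had 0.134, 0.578, 1.19 and 0.715 FPKM in females and 1.13, 1.13, 1.43 and 2.31 FPKM in males, listed with Bach2KO first (log2 difference 1.31, unadjusted p = 0.0122, adjusted p = 0.89 in edgeR). A single female, Bach2WT mouse 1, lay among the males. Galnt6os had a log2 difference of 0.57 and Gm45447 of 1.41, both higher in males. Gm43305 and Gm15441, the latter opposite to Txnip, a gene of glucose sensing, had log2 differences of -1.71 and -2.05. Gm15441 had 0.661 and 0.691 FPKM in the female Bach2KO mice and 0.0258 to 0.399 FPKM in all others. Without the filter on low counts, 6 lncRNAs passed the adjusted p in edgeR, Gm43305 and Gm15441 among them. The share of all genes that passed in that fit is not given here, so this count is not a result about lncRNAs.

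The effect of genotype differed between the sexes for 0 lncRNAs at an adjusted p in edgeR (0% of all genes), and for 14 at an unadjusted p (7.53% against 6.14% of all genes), 3 with a positive (3.27% of all genes) and 11 with a negative difference (2.87% of all genes). The smallest p belonged to 1810019D21Rik, which is named here after its values were seen. It had 1.503 and 0.975 FPKM in female Bach2KO against 0.461 and 0.336 FPKM in female Bach2WT mice, and 0.769 and 0.977 FPKM in male Bach2KO against 1.26 and 1.15 FPKM in male Bach2WT mice. The genotype effect in males minus that in females was -2.12 on the log2 scale (SE 0.45, unadjusted p = 0.000545), with an adjusted p of 0.672 in edgeR and 0.0184 in DESeq2. This difference rests on 2 mice per sex and genotype.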

How the data were processed

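Poly-T purified RNA from pancreas of 8 mice, 1 library each, was sequenced in pairs by the authors. The submitters' processing notes list fastp, HISAT2 2.2.1, featureCounts 2.0.6 and the mm39 build (GRCm39). Strand setting and filters are not given in the sources used here. The deposited table holds raw counts per gene, FPKM values scaled by library and gene length, and a normalized signal (counts divided by a size factor, by the authors), which was not used in any test. The authors' own fold changes, p-values and group means were also left out. Among counts from 2 to 101, 70% were even over all genes.

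The lncRNAs and gene lists were chosen with earlier results of these data known. Counts were tested with edgeR 4.0.16 (TMM, filterByExpr, quasi-likelihood test with genotype as the term, Benjamini-Hochberg adjustment over 12820 genes) in R 4.3.3. Sex and the sex by genotype interaction were tested in models with both terms, and p under 0.05 was the threshold. All p-values from edgeR and DESeq2 are two-sided. The fits were tested on simulated counts. DESeq2 1.42.0 and other settings were alternatives. CVs are SD over mean of TMM-normalized CPM within a genotype, averaged over both. Named were the 15 most abundant lncRNAs, those of the lists, those without overlap of genotypes and an unadjusted p under 0.05, the 5 smallest p-values by sex, the 5 lowest and 5 highest CVs, and the last inside and first outside the 200. Others, among them those near enzyme genes below the first 15, were named after their values were seen. Copies were sought with BLAST 2.17.0. RefSeq promoters (GRCm38.p6) matched 93 of the 200. Depth ranged from 72299745 to 172029360 counts, and floors (3 counts) cover counting error only. Whether the mice were littermates is not given.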

Additional observations from a re-analysis of the deposited data

Results flagged for a closer look

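In groups of 4 mice, a value was picked out where its gap to the nearest other mouse exceeded Dixon's critical value as a share of the group's range. This applied to 8 of 106 groups over 53 named lncRNAs, and chance gives about 1 in 20 groups. The numbers cannot be compared, since Gm48129, ENSMUSG00000121056 and ENSMUSG00000121119 were named for their wide spread. Gm10076 had 238.7 FPKM in Bach2WT mouse 4 and 42 to 68.4 FPKM in the other Bach2WT mice. Gm16156 had 1.101 FPKM in the same mouse and 0.609 to 0.652 FPKM in the others. Gm48129 had 0.4473 FPKM in that mouse and 0 in the other Bach2WT mice, and ENSMUSG00000121056 had 0.06373 FPKM there and 0 in the others. In Bach2KO mouse 3, ENSMUSG00000121056 had 0.8701 FPKM (others 0.0226 to 0.157), ENSMUSG00000121119 had 0.9932 FPKM (others 0 to 0.0747) and ENSMUSG00000120250 had 0.4531 FPKM (others 0.198 to 0.228). ENSMUSG00000120250 also had 0.09417 FPKM in Bach2WT mouse 2 (others 0.0303 to 0.0398). Bach2KO mouse 3 and Bach2WT mouse 4 were the libraries highest in islet, red blood cell and duct markers, whose part in these values was not tested.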

How the results depend on the processing

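Under the alternatives, 434 of 448 values of 30 lncRNA results kept direction and side of the threshold. All 30 began far above the threshold (adjusted p of 0.44 or more in edgeR), and the fits shared most or all mice. The count therefore says little about how firm the fold changes are. Without the filter on low counts, 2 lncRNAs passed the adjusted p between genotypes in edgeR (1810007D17Rik and ENSMUSG00000121069), 6 between the sexes and 2 in the interaction (1810007D17Rik and 1810019D21Rik). The shares of all genes past the adjusted p in these unfiltered fits are not given here, so the counts cannot be set against them. The other counts of lncRNAs past the adjusted p between genotypes were 0, against 14 at the unadjusted p. In the interaction, DESeq2 called 1, and the share of all genes in that fit is not given here. Leaving out a single mouse leaves 1 mouse of its sex and genotype, so no counts are given for those interaction fits. Leaving out single mice gave 7 to 21 lncRNAs at the unadjusted p between genotypes, with 7 without Bach2KO mouse 1 (3.89%, against 5.51% of all genes) and 21 without Bach2KO mouse 4 (11.6%, against 7.67%). The cause was not tested.

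The log2 fold change of Malat1 was 0.32 with the replicate block and ranged from -0.373 to 0.431 over fits without single mice (0.076, 0.01, 0.431 and 0.014 without Bach2KO mice 2 and 4 and Bach2WT mice 1 and 3). That of Snhg15 ranged from -0.075 to 0.488 and that of Snhg17 from -0.294 to 0.434, both lowest without Bach2KO mouse 1 and at -0.069 and -0.153 without Bach2WT mouse 2. That of Mir22hg ranged from -0.635 (without Bach2KO mouse 1) to 1.552, and that of Peg13 from -0.198 (without Bach2KO mouse 3) to 0.483. The median CV was 51.3% over all 8 mice and 43.4% to 48.7% without single mice, and the median SD of log2(FPKM + 0.1) was 0.491. The replicate block left 14 lncRNAs at the unadjusted p and 0 at the adjusted p in edgeR. Correlations of same-numbered mice were 0.212, -0.034, -0.041 and -0.054, and those of pairs with unlike numbers ranged from -0.165 to 0.106. The largest was that of the mice numbered 1. So few pairs cannot tell whether same-numbered mice shared more than their sex. Low counts limit the lower ranks, where the median CV was 63.9%. Ranked by other measures of level, 141 to 196 of the 200 lncRNAs were shared.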
